A study of Rattus norvegicus with 10 samples.

Results

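The galanin family of the rat comprises the ligand genes Gal, which encodes galanin, and Galp, which encodes galanin-like peptide, and the receptor genes Galr1, Galr2 and Galr3. Its members were taken by symbol: every probe set that the platform annotation gives to 1 gene symbol equal to one of these 5 names. That gave 6 probe sets among 31042, or 5 genes among 14217 with such a probe set. The family itself was chosen on results of the same 10 arrays, in which Galp differed between the groups, so the differences of its members between the groups are given as a description, without a p, and support nothing further.

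Expression was read on Affymetrix Rat Genome 230 2.0 arrays in the neurointermediate lobe of the rat pituitary, with 5 arrays of animals dehydrated for 3 days and 5 of control animals. All animals were male Sprague Dawley rats of 10 to 12 weeks, and each array carried RNA of a separate pool of 5 animals, so that the spread between arrays is a spread between pools. The sample labels give the neurointermediate lobe throughout, whereas the design text of the series names the supraoptic nucleus, and the labels were followed. In bulk RNA of this kind a change in the number of cells of a type and a change in RNA per cell cannot be told apart.

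Galanin is a neuropeptide that magnocellular vasopressin neurones of the rat hypothalamus carry to the neural lobe, and anterior lobe cells, lactotrophs among them, also make it. Galanin-like peptide shares with galanin the stretch by which both bind the galanin receptors, and in the rat it is made by neurones of the arcuate nucleus and by pituicytes, the glial cells that surround the hormone-releasing axon endings of the neural lobe. The receptors couple to G proteins: Galr1 and Galr3 to the inhibitory Gi and Go class, Galr2 mainly to Gq, which drives phospholipase C.

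The sequences upstream of both ligand genes are shown because these are the family members whose transcripts were bright enough to be followed on the arrays. They were taken from RefSeq (build GRCr8, minus strand, read 5′ to 3′) and hold the 250 bases before the annotated transcript start. Capitals mark matches, on either strand, to the motifs searched. These were the TATA box written TATAAA, the cAMP response element written TGACGTCA, its short core written TGACG, the AP-1 site written TGANTCA, the STAT site written TTCNNNGAA and the NFAT core written GGAAA.
Galp, chr1:76736207-76736456: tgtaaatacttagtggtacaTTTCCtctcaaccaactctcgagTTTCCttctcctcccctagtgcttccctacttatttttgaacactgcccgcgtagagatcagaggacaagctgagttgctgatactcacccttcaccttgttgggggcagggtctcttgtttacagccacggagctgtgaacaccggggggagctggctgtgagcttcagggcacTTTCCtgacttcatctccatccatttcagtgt
Gal, chr1:210084573-210084822: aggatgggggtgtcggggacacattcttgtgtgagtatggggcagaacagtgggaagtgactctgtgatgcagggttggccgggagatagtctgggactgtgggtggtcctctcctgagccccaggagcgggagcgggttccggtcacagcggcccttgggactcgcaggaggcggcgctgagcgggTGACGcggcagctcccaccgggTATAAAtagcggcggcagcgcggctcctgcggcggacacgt

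The Gal window held a TATA box whose first base lies 41 bases before the start, and the short core of the cAMP response element 63 bases before it. Among 33469 RefSeq windows of the same length, 12.9% held that TATA box and 18.2% that core, matches to the full element included. The Galp window held neither, and had 3 matches to the NFAT core on the opposite strand, at 230, 207 and 32 bases before the start, a core present in 56.9% of all windows. The full cAMP response element, the AP-1 site and the STAT site were in neither window (1.59%, 6.34% and 7.67% of all windows). The start that RefSeq uses for Galp lies 4850 bases inside the outermost end of the gene, so the annotated span of the gene reaches past this window, while the Gal window lies just outside the gene's annotated span. The G and C content was 50.4% in the Galp window and 66% in the Gal window.

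Galp was far brighter on every dehydrated array than on any control array. Its signals, as scaled intensities, were 198.2, 148.1, 252.5, 260.1 and 280.3 in dehydrated lobes, against 28.5, 26.2, 31.1, 19.4 and 18.4 in control lobes. The lowest dehydrated array was 4.76 times the highest control array, and the groups did not overlap. The mean signal was 228 ± 53.9 in dehydrated lobes and 24.7 ± 5.60 in control lobes (SD, n = 5 each). The log2 change, on the scale log2(signal + 5) used throughout, was 2.96 ± 0.17 (SE), a 7.76-fold difference, and the ratio of the mean signals, without the pseudocount, was 9.22.

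The relative spread of Galp was alike in the groups, with a coefficient of variation of 23.7% in dehydrated lobes and 22.7% in control lobes. Its mean log2 level stood at the 85.6th percentile of all probe sets in dehydrated lobes and at the 41.1st percentile in control lobes. The filter kept the brightest 60% of probe sets, so Galp was just above that limit by its control arrays alone. Leaving out any one array kept its change between 7.33-fold and 8.56-fold.

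Gal differed far less. Its signals were 59.8, 56.9, 56.9, 67.3 and 46.7 in dehydrated lobes, against 57.7, 43.5, 40.6, 45.9 and 35.3 in control lobes. The groups overlapped through control array 1 alone, which exceeded 3 of the 5 dehydrated arrays, whereas every dehydrated array was above the other 4 control arrays. Means were 57.5 ± 7.39 in dehydrated lobes and 44.6 ± 8.32 in control lobes (SD, n = 5 each), a log2 change of 0.34 ± 0.14 (SE), or 1.27-fold.

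**Figure D1:**
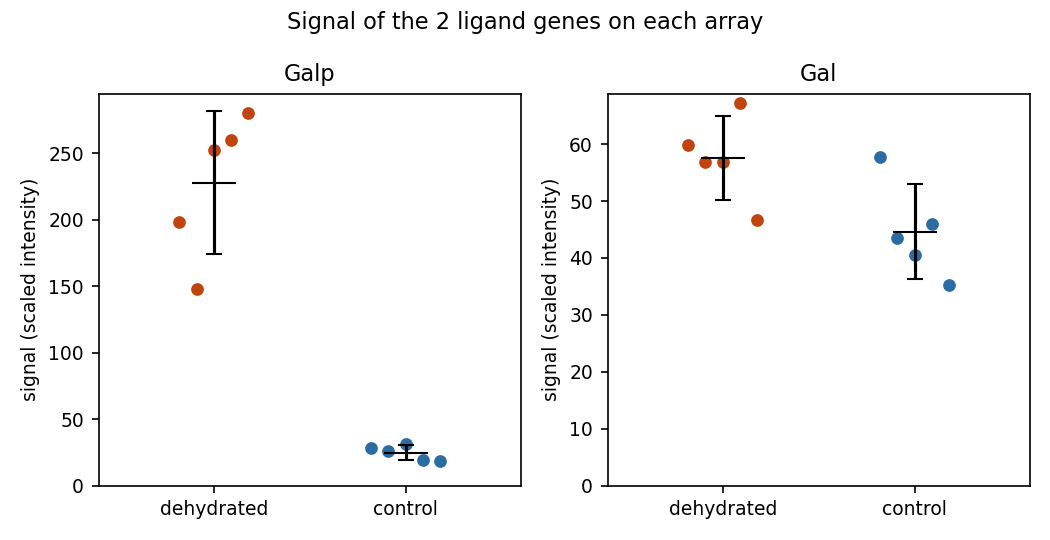
Signal of Galp (left) and Gal (right) on each array, as scaled intensity from 0, with 1 point per array and the mean and SD of 5 arrays as bars. The 5 dehydrated arrays of Galp sit between 148.1 and 280.3, all above the control arrays at 18.4 to 31.1, while for Gal the groups share the range from 46.7 to 57.7.

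Of the 2 family probe sets kept by the filter on dim signals, 1 met the rule for a call (adjusted p under 0.05 in limma), that of Galp. Over all 18625 kept probe sets 2.46% were called and 4.59% had groups that did not overlap. The family was picked with this contrast known, and nothing is read from the count.

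RNA integrity was compared with both ligands from array to array. It was measured as the 3′ to 5′ ratio, taken on the log2 scale between control probe sets at either end of the GAPDH and beta-actin transcripts, which grows as RNA or its labelled copy is shortened. The ratio was 2.15 ± 0.38 in dehydrated lobes and 1.78 ± 0.48 in control lobes (SD, n = 5 each, exact two-sided permutation p = 0.214; 0.321 adjusted over the 6 array measures compared). With each group's mean taken off, the log2 level of Gal correlated with the ratio at r = 0.80 over 10 arrays (exact permutation p = 0.0150 over 14400 orders within the groups; rho = 0.74, exact permutation p = 0.0253). Adjusted over the 4 relations tested these values were p = 0.0600 for r and p = 0.101 for rho, by the same exact permutation test, which miss 0.05. Without the 2 arrays farthest from the median ratio, control 5 and dehydrated 2, r was 0.88. The same relation for Galp gave r = -0.29 and rho = -0.45 (exact permutation p = 0.424 and 0.214, adjusted to 0.848 and 0.428), and r = -0.33 without those 2 arrays. These pooled values do not show the order of the arrays within each group. Galp of the dehydrated arrays fell at every step as the ratio rose, from 280.3 at 1.61 to 148.1 at 2.67, while the control arrays followed no order. Gal rose with the ratio at every step among control arrays. Among dehydrated arrays it was lowest on array 5 and did not rise over the rest. These orders within a group were not tested, nor was a difference in them between the groups.

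On a pair of arrays the ratio lay farthest inside the range of the other group. Dehydrated array 5 had a ratio of 1.61, the lowest of its group, and control array 1, the one that made the Gal groups overlap, had 2.52, the highest of its own. With both left out for their ratio, Gal lay between 56.9 and 67.3 on the 4 dehydrated arrays and between 35.3 and 45.9 on the 4 control arrays, a log2 change of 0.50. Since control array 1 alone caused the overlap, its absence there follows from leaving that array out. On those 8 arrays the ratio did not overlap either, at 2.05 to 2.67 in dehydrated lobes and 1.26 to 1.91 in control lobes. With that ratio in the model over all 10 arrays the log2 change of Gal was 0.20 and that of Galp 3.04. For Galp the change was therefore as large with the ratio in the model. For Gal it was smaller, but by less than its replicate spread of 0.21 (pooled SD, log2). Neither shift was tested. That model gives both groups the same slope on the ratio, so it cannot describe slopes that differ between the groups. Whether they differ was not tested.

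**Figure D2:**
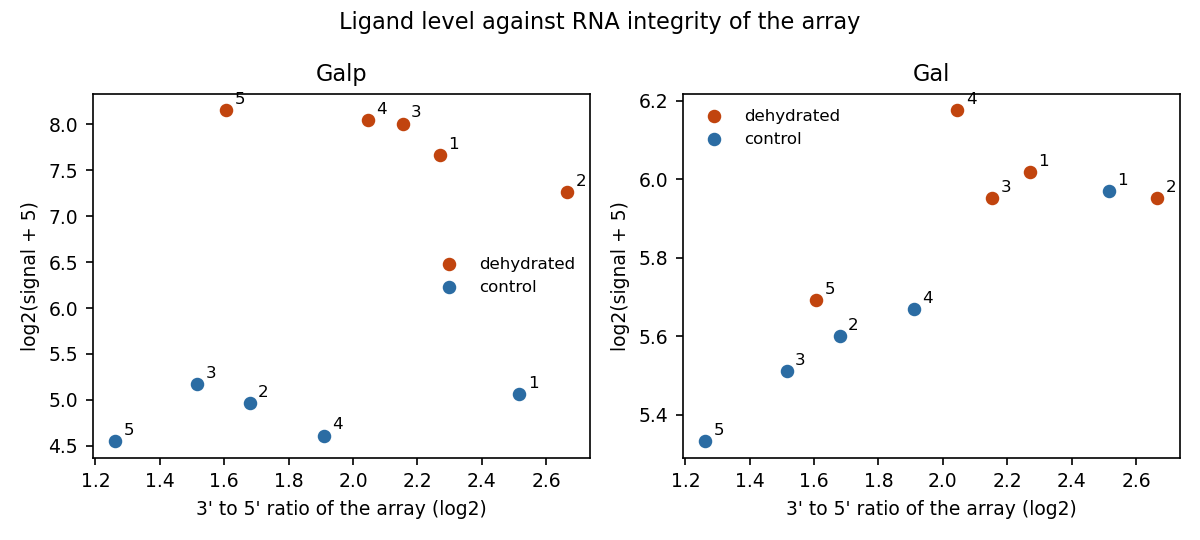
Level of Galp (left) and Gal (right), as log2(signal + 5), against the 3′ to 5′ ratio of the array (log2), with 1 point per array, coloured by group and numbered as the arrays within it. Dehydrated and control arrays of Galp form separate bands at any ratio, and the dehydrated ones run lower as the ratio grows, whereas Gal of the control arrays climbs with the ratio at every step and dehydrated array 5, with the lowest ratio of its group, has the lowest Gal.

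Levels of the cells that could supply these transcripts were set beside the ligands, as mean log2 levels over marker lists. Of the 35 marker genes tested 22.9% were called, against 2.46% over all kept probe sets. The changes of Gfap, Avp, Oxt and Pcsk2 were known when the lists were written, so nothing is read from that share. Pituicyte and astroglia markers (14 genes) averaged 8.95 ± 0.07 in dehydrated lobes and 8.69 ± 0.09 in control lobes (SD, n = 5 each, exact permutation p = 0.00794, the smallest these groups can give; 0.0159 adjusted). That list holds Gfap, the intermediate filament of astroglia, whose increase was known when the list was written and which carried most of the difference: it was 0.26 with Gfap and 0.10 over the other 13 genes, whose levels overlapped between the groups. Of its 14 genes 3 rose, Gfap, Lhx2 and Slc1a3, with log2 changes of 2.38, 0.39 and 0.36 (adjusted p = 5.30e-06, 0.00564 and 0.00694 in limma). Slc1a3 had 3 kept probe sets and was called on the brightest only. The remaining ones did not pass and differed in sign, so its rise rests on a single probe set. The other 11 genes did not pass, and 9 of the 14 had a positive change. Nes, the gene of the filament nestin, had the second largest log2 change at 0.89 (limma adjusted p = 0.0691), Vim, the vimentin gene, had 0.24, S100b, a glial calcium-binding protein gene, had -0.21, and Fabp7, a glial lipid-binding protein gene with the lowest change, had -0.23. The part of pituicyte number in the change of Galp was not tested.

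Peptide genes of the magnocellular axons (5 genes, Avp and Oxt among them) averaged 9.45 ± 0.10 in dehydrated lobes and 8.97 ± 0.06 in control lobes (SD, n = 5 each, exact permutation p = 0.00794; 0.0159 adjusted). Avp, the vasopressin gene, and Oxt, the oxytocin gene, rose, with log2 changes of 1.38 and 0.83 (adjusted p = 1.36e-06 and 6.08e-06 in limma), and both of these results were known beforehand. The other 3 did not pass, with log2 changes of 0.22 for Penk, 0.09 for Pdyn and -0.13 for Cck, and the list's difference of 0.48 was 0.06 without Avp and Oxt, with overlapping groups. Anterior lobe hormone markers (6 genes) ranged from 8.75 to 9.66 in dehydrated lobes and from 7.97 to 9.55 in control lobes (exact permutation p = 0.476). The prolactin gene Prl, the main product of lactotrophs, had a log2 change of 0.00 and the growth hormone gene Gh1 one of 0.38 (limma adjusted p = 0.996 and 0.625), while Fshb, the beta chain of follicle-stimulating hormone, fell by 0.86 (limma adjusted p = 0.00507). Tshb had the largest change of that list, 1.17, and did not pass (limma adjusted p = 0.260). Cga at 0.32 and Lhb at 0.26 did not pass either, and 5 of the 6 genes had a positive change. With the anterior lobe level as a covariate the log2 change of Gal was 0.33, and the level correlated with Gal within the groups at r = 0.17 (rho = 0.04; exact permutation p = 0.693 and 0.923, adjusted to 0.924 and 0.923; r = -0.42 without the 2 arrays farthest from the median of that level). For Galp it was r = -0.02 (rho = 0.04; exact permutation p = 0.941 and 0.920, adjusted to 0.941 and 0.923; r = 0.11 without those 2 arrays), and its log2 change with that covariate was 2.96. Melanotroph markers (4 genes) averaged 9.39 ± 0.08 in dehydrated lobes and 9.66 ± 0.07 in control lobes (SD, n = 5 each, exact permutation p = 0.00794; 0.0159 adjusted), a difference of -0.27. It was -0.06, with overlapping groups, without the convertase gene Pcsk2, whose decrease was known beforehand. Pomc, the precursor gene of the melanotroph hormones, had a log2 change of -0.09, Drd2 one of -0.08 and Tbx19 one of -0.01, and none of these passed (limma adjusted p = 0.837, 0.594 and 0.974). Microglia and macrophage markers (6 genes) averaged 7.50 ± 0.21 in dehydrated lobes and 7.42 ± 0.12 in control lobes (SD, n = 5 each, exact permutation p = 0.476), and 1 of the 6, Aif1, rose, with a log2 change of 0.42 (limma adjusted p = 0.0375). Cd68, with the largest change of that list, lay in the other direction at -0.74 and did not pass (limma adjusted p = 0.0810).

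The receptor genes were dim. None of their 4 probe sets passed the filter, so none was tested, and whether signals this low stand above background is unknown because detection calls were not used here. Galr1, the receptor that acts through Gi, had signals of 0.5, 4.6, 1.2, 1.6 and 0.6 in dehydrated lobes, against 10.9, 0.7, 1.5, 4.6 and 11.4 in control lobes. Control arrays 1 and 5 were the high ones, and the other 3 control arrays lay within the dehydrated range. Its log2 change of -0.59 ± 0.30 (SE) was -0.23 with a pseudocount of 20 and -1.10 with one of 1, so its size depends on how low signals are treated.

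Galr2, the receptor that acts mainly through Gq, had a pair of probe sets. On the one with the suffix _a_at its signals were 13.9, 6.6, 25.6, 8.6 and 12.4 in dehydrated lobes, against 13.4, 8.1, 10.0, 5.6 and 18.5 in control lobes. The groups overlapped almost entirely, with a log2 change of 0.16 ± 0.29 (SE), and without dehydrated array 3 the change was -0.04. On the one with the suffix _x_at, which marks probes that may also bind other transcripts, signals were 21.1, 18.6, 22.0, 18.7 and 13.5 in dehydrated lobes, against 17.9, 16.8, 14.6, 15.3 and 3.3 in control lobes. Dehydrated arrays 1 to 4 were above every control array and control array 5 was far below the rest. The log2 change was 0.43 ± 0.28 (SE) with all arrays and 0.16 without control array 5. Galr3, the other Gi-coupled receptor, had signals of 4.8, 6.6, 6.4, 2.6 and 3.4 in dehydrated lobes, against 5.6, 4.9, 3.3, 3.1 and 2.4 in control lobes, with overlapping groups and a log2 change of 0.13 ± 0.19 (SE). With RNA integrity in the model that change was -0.02.

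**Figure D3:**
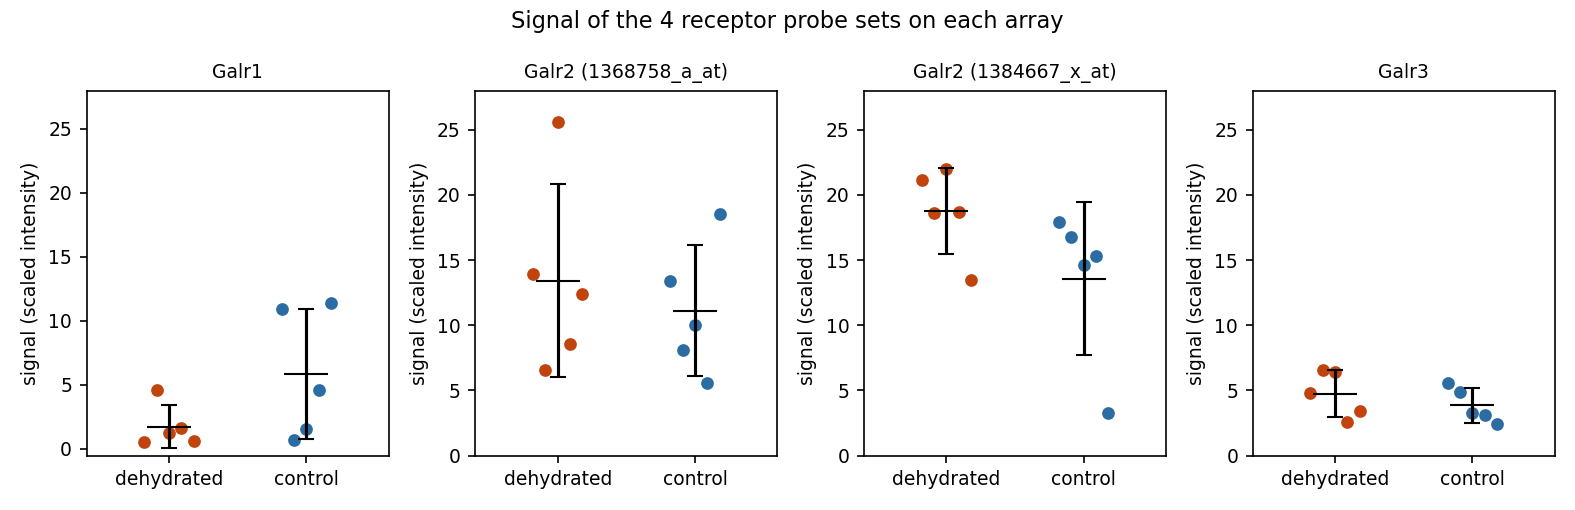
Signal of the 4 receptor probe sets on each array, as scaled intensity on a common axis, with 1 point per array and the mean and SD of 5 arrays as bars. All values lie at or below 25.6, and dehydrated and control arrays overlap in each panel.

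**Figure D4:**
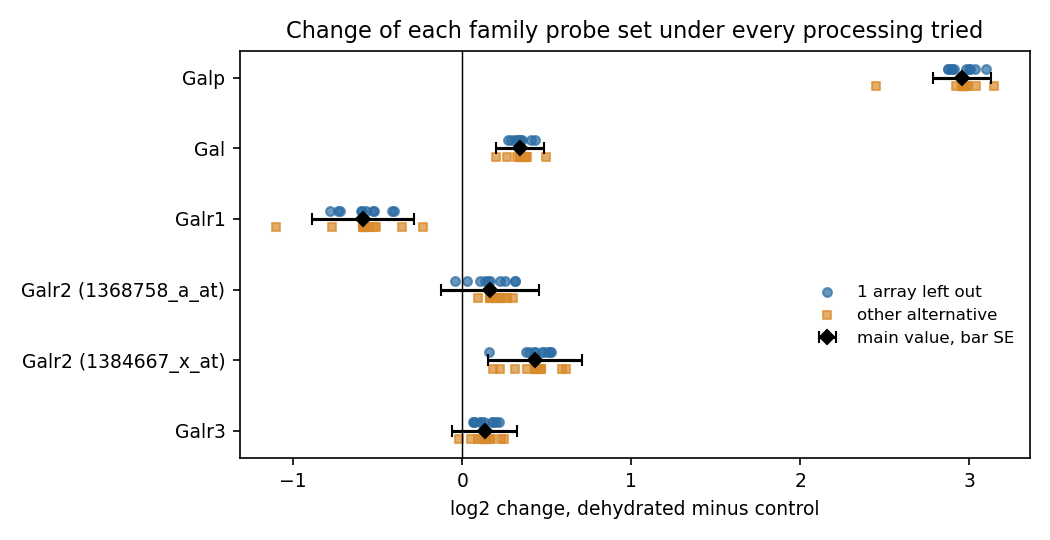
Log2 change, dehydrated minus control, of the 6 family probe sets with all arrays as processed (diamond, bar SE), with 1 array left out (circles) and under the other alternatives (squares). Galp stays between 2.45 and 3.15 and Gal between 0.20 and 0.50, while the second Galr2 probe set ranges from 0.16 to 0.61.

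Genes that act with the family were taken from a list of 47 that process the peptide precursors, carry the receptor signal, regulate the receptors or break the peptides down. Of these, 40 had a probe set with 1 symbol and 32 passed the filter. None rose and 2 fell, Pcsk2 and Rgs2, the decrease of Pcsk2 being known when the list was written. That is 6.25% of the 32, against 2.46% called and 0.784% called as lower over all kept probe sets. The median log2 change of the 32 genes was -0.08, beside -0.01 over all kept probe sets, and 9 of the 32 had a positive change. Among the relatives, Kiss1r, the kisspeptin receptor gene, was below the filter, and Spx, Kiss1 and Gpr151 were not analysed here.

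Among 6 tested genes of precursor processing, 1 fell and none rose. Pcsk2, the prohormone convertase of neuroendocrine cells, had a mean signal of 391 ± 106 in dehydrated lobes and 715 ± 107 in control lobes (SD, n = 5 each). It fell by 0.88 in log2 units (adjusted p = 0.00219 in limma), as was known beforehand, and the groups did not overlap. It is also a melanotroph marker. Pam, the enzyme that amidates the end of galanin and other peptides, was named after its values were seen: it had 1561 ± 65.8 in dehydrated lobes and 1789 ± 38.5 in control lobes (SD, n = 5 each), with no overlap, yet missed the threshold (log2 change -0.20, limma adjusted p = 0.0915). Cpe, the carboxypeptidase that trims peptide ends, had a log2 change of 0.14 and Furin, a convertase of the secretory pathway, one of -0.01 (limma adjusted p = 0.504 and 0.986).

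Among 7 tested genes of receptor regulation, 1 fell and none rose. Rgs2, a regulator that shortens the signal of Gq, had a mean signal of 415 ± 53.3 in dehydrated lobes and 572 ± 66.8 in control lobes (SD, n = 5 each) and fell by 0.46 in log2 units (adjusted p = 0.0164 in limma), although the groups overlapped. Its second probe set also fell, by 0.78 (limma adjusted p = 0.00564). The call on the first ended without dehydrated array 3 (limma adjusted p = 0.0597), without control array 2 (0.0509) and without an intensity trend (0.0693). Rgs4, a regulator of the Gi and Gq classes named after its values were seen, had a log2 change of -0.35 and did not pass (limma adjusted p = 0.227).

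None of the 6 tested G protein genes, 10 effectors or 3 peptidases passed. Gnao1, the alpha chain of Go, had a mean signal of 47.3 ± 14.3 in dehydrated lobes and 68.8 ± 15.8 in control lobes (SD, n = 5 each), a log2 change of -0.52 (limma adjusted p = 0.174). Adcy6, an adenylyl cyclase that Gi inhibits, had a log2 change of -0.31 (limma adjusted p = 0.104), and its second probe set one of 0.08 (limma adjusted p = 0.851). Mme, the peptidase neprilysin, had a log2 change of -0.36 (limma adjusted p = 0.110).

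**Figure D5:**
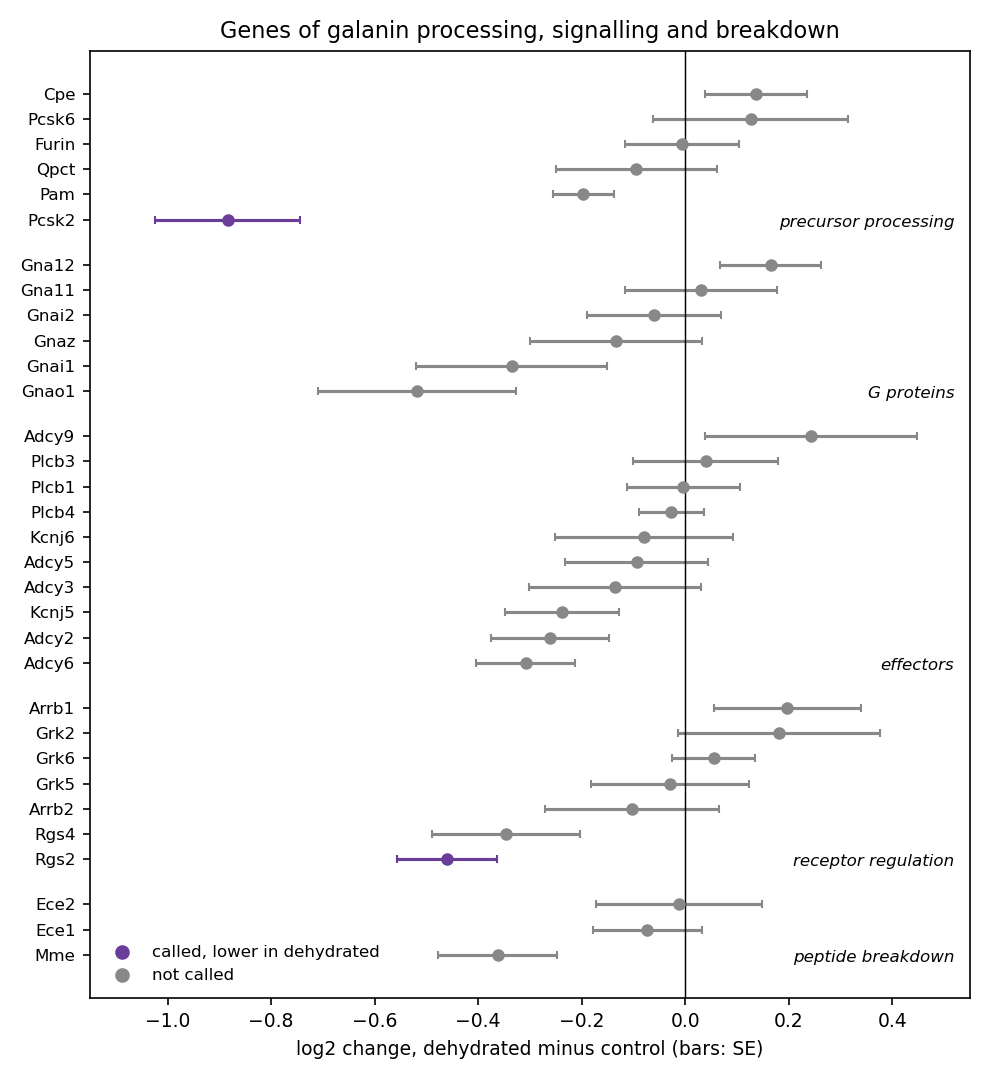
Log2 change, dehydrated minus control, with its SE for the 32 tested genes that act with galanin and its receptors, grouped by role. Pcsk2 at -0.88 and Rgs2 at -0.46 are the called genes, both lower in dehydrated lobes.

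Likeness to each ligand was measured as Pearson's r of log2 levels over the 10 arrays, against 10592 genes, and is a description. For Galp the r over the arrays as they stand is set by the difference between the groups. The closest genes were Chi3l1 (r = 0.99), Hsd11b1 (0.97), Lcn2 (0.97), Rftn1 (0.97) and Fxyd5 (0.97), and none of them overlapped between the groups. Chi3l1, a chitinase-like protein gene, had a mean signal of 1013 ± 155 in dehydrated lobes and 309 ± 27.2 in control lobes (SD, n = 5 each). Lcn2, an acute-phase lipocalin gene, had 829.5 ± 200.2 in dehydrated lobes and 212 ± 29.3 in control lobes, and Hsd11b1, which regenerates active glucocorticoid, had 601 ± 68.5 in dehydrated lobes and 247 ± 29.3 in control lobes (SD, n = 5 each). Rftn1, a lipid raft protein gene, and Fxyd5, a sodium pump regulator, had log2 changes of 0.63 and 0.64.

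Once each group's mean was taken off, none of those 5 genes was among the closest to Galp, which were then Wdr45b (r = 0.97), Stx5 (0.97), Ino80 (0.96), Scamp2 (0.94) and Hibadh (0.93). Their log2 changes lay between -0.21 and -0.08, and their groups overlapped. For Gal, Rsl1d1 and Med28 were the closest by both measures, with r = 0.97 and 0.96 over the arrays as they stand, and 0.94 and 0.96 with the group means taken off. Ccdc90b (0.95), Mrps15 (0.95) and Txndc12 (0.94) followed by the first measure, and Tmem223 (0.94), Cyrib (0.93) and Syap1 (0.93) by the second. All of these genes had log2 changes between -0.08 and 0.32 and overlapping groups. With so few arrays per group and so many genes, 16 genes reached r above 0.9 with Galp and 12 with Gal after the group means were taken off.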

How the data were processed

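RNA of 10 pools of 5 rats was measured on 1 array each. Per the labels, samples fall into 5 dehydrated and 5 control arrays, with no batch or pairing given; arrays were numbered in deposition order as names. The authors deposited 1 intensity per probe set on a linear scale. GCOS 1.2 is named in the submitters' processing notes; algorithm and scaling are not given in the sources used here, nor is a genome build. The mean after trimming 2% at each end was 100.02 to 100.03 on all arrays, so the values had been scaled and were not scaled again. Median signals were 35.7 to 39.6 and arrays correlated at r = 0.947 to 0.976. The number of arrays limits the precision.

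After 57 control probe sets were removed, 31042 were left, of which 436 had several symbols and 9780 none. Values were taken as log2(signal + 5), which understates changes of dim genes, and the brightest 60% by mean over all arrays were kept. The groups were tested in limma 3.58.1 under R 4.3.3 (intensity trend, two-sided, Benjamini-Hochberg over 18625 probe sets); called means an adjusted p under 0.05. A gene was represented by its brightest kept probe set. Single array measures were compared by exact permutation over 252 arrangements. The steps were tested on simulated data. Figures were drawn in Python 3.11.15 with matplotlib 3.10.9. Symbols of the family equalled those of the RefSeq table (GRCr8), from which promoter windows were read.

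The members, marker lists and tests were chosen with earlier results of these data known. Genes named were all members, and pathway genes that passed or had the smallest p of a subgroup without one. Selected markers (Gfap, Vim, S100b, Avp, Oxt, Pomc, Prl and Gh1) were also named. So were, for each ligand, the 5 genes of highest r by both measures of likeness. The markers Nes, Lhx2, Slc1a3, Fabp7, Fshb, Tshb, Aif1 and Cd68 were picked by their values. Others are said to be named after their values were seen, or are examples from the lists. Alternatives changed normalization, pseudocount, filter, variance model, array weights, covariates, the probe set used for a gene and the arrays included. Correlations with array measures and marker levels without the genes known beforehand were added after the data were seen.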

Additional observations from a re-analysis of the deposited data

Results flagged for a closer look

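Of 44 sets of 5 arrays examined, 3 had an array that stood apart by Dixon's criterion for 5 values, where chance gives about 1 in 20. The sets were each family probe set, each array measure and the called pathway genes Pcsk2 and Rgs2, in each group. The markers Gfap, Vim, S100b, Avp, Oxt, Pomc, Prl and Gh1 were also examined. Other genes named in the text were not examined in this way. On the Galr2 probe set with the suffix _x_at, control array 5 had a signal of 3.3, while the other control arrays lay at 14.6 to 17.9. For Oxt, control array 3 had 1021 and was the lowest of its group. The microglia and macrophage level was lowest, at 7.21, also on control array 3, against 7.44 to 7.53 on the other control arrays.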

How the results depend on the processing

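The log2 change of Galp was 2.87 to 3.10 with 1 array left out and moved by more than the replicate spread only with a pseudocount of 20 (2.45). That of Gal was 0.27 to 0.43 with 1 array left out and was positive under all 22 alternatives that kept its probe set; it is not among the brightest 40%. Galr1 was negative under all 22 alternatives, whereas the first Galr2 probe set and Galr3 each changed sign under 1. The count of called probe sets, 458, was 240 without an intensity trend, 730 with array weights and 1398 without dehydrated 5 and control 1, and 218 (without dehydrated 3) to 1156 (without dehydrated 5) with 1 array left out; without dehydrated 1 or control 2, 3, 4 or 5 it was 301, 290, 288, 299 and 304. Of these calls 68.1% were higher in dehydrated lobes; the share was 80.1% with arrays centred on their medians, 56.3% without dehydrated 5, 47.7% without dehydrated 5 and control 1, and 63.6% to 69.0% under the other alternatives. The family had 2 called probe sets, Gal included, without dehydrated 5 and control 1, and 1 under the other 22 alternatives. That setting leaves out control 1, the only array that made the Gal groups overlap, and in it the 3′ to 5′ ratio did not overlap between the groups. Nothing is therefore read from that call of Gal. Of the pathway genes 2 were called, 1 without an intensity trend, and 1 to 3 with 1 array left out, 1 being left without dehydrated 3 or control 2. With quantile or cyclic loess normalization, with array weights, and without dehydrated 5 and control 1, 3 were called, all lower in dehydrated lobes. The cause of these shifts was not tested. No paired analysis was possible because the labels give no replicate numbers. Signal over background is unknown, which limits the receptor values most.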
